A study of Rattus norvegicus with 6 samples.

Results

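The WNT genes described here are the ligands, receptors, secreted inhibitors, transcription factors and targets of the WNT pathway that the RNA-seq tables of adult rat hippocampal neural stem cells (NSCs) listed. They were chosen by symbol, as every gene named Wnt, Fzd, Sfrp or Dkk with a number, together with *Axin2*, *Lef1*, *Tcf7*, *Tcf7l1*, *Tcf7l2*, *Lrp5*, *Lrp6*, *Ctnnb1*, *Nkd1* and *Lgr5*. This rule was met by 44 of the 17315 genes listed, and *Tcf7* was not analysed here. A gene was called expressed when its mean over the 6 samples was at least 1 TPM (a unit of relative transcript abundance, explained below), and 29 of the 44 were. The cells were HCN, an NSC line cloned from adult rat hippocampus, transfected with a control siRNA duplex (siControl, 3 samples) or with a duplex against *Derl1* (siDerl1, 3 samples). *Derl1* encodes Derlin-1, a membrane protein of the endoplasmic reticulum that takes part in the disposal of misfolded proteins. Cells of both groups stayed in proliferation medium and then had BMP4 for 2 days, which brings cultured NSCs to quiescence, before poly(A) RNA was sequenced. The comparison asks which transcripts differ when Derlin-1 is low in cells brought to quiescence. It rests on 1 cell line, 1 duplex against *Derl1* and 1 state of the cells, since all 6 samples had BMP4.

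Wnt proteins are secreted, lipid-modified ligands that bind Frizzled (Fzd) receptors together with the co-receptors Lrp5 and Lrp6. In the canonical branch this binding stops the destruction of β-catenin, the product of *Ctnnb1*, which then joins transcription factors of the Tcf/Lef family at target genes such as *Axin2*. Secreted Dkk proteins act on the co-receptors and secreted frizzled-related proteins (Sfrp) bind the ligands, and in the adult hippocampus WNT signalling is known for promoting neurogenesis from stem cells.

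The promoters of 3 of these genes are shown because Tcf/Lef factors bind a short core, CTTTGA, and because *Dkk1* had the largest log2 fold change of the members over all 6 samples and *Axin2* and *Nkd1* are feedback targets of the pathway. The 250 bases before each transcription start are given 5′ to 3′ on the strand of the gene, from RefSeq promoters of the rat assembly GRCr8, with the core and its longer form CTTTGATG in capitals. TCAAAG in the *Dkk1* promoter is the core read on the other strand. *Axin2* lies on the plus strand, at chr10:94398535-94398784, and *Dkk1* and *Nkd1* lie on the minus strand, at chr1:237798651-237798900 and chr19:34722847-34723096.
Dkk1: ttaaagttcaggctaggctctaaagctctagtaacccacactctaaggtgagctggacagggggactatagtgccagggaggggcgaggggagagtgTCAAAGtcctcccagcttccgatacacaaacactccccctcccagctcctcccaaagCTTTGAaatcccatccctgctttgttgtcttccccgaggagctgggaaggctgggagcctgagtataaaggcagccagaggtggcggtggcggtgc
Axin2: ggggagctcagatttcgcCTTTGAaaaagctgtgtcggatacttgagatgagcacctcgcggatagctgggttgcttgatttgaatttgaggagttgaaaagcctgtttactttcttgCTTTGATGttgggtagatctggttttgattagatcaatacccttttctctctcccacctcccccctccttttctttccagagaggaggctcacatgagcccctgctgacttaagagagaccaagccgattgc
Nkd1: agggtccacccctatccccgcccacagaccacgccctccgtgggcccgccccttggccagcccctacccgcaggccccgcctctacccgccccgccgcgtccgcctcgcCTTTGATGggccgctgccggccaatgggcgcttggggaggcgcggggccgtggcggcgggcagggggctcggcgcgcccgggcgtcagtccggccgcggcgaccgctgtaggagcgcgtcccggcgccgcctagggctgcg

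Counted back from the start, the core began at −153 (as TCAAAG) and at −96 in *Dkk1*, at −232 and −132 in *Axin2*, and at −141 in *Nkd1*. The search covered both strands of 300 bases, 250 before the start and 50 from it on, in the 30 members for which a promoter was given. CTTTGA stood in 4 of the 30 (13.3%), the fourth being *Wnt8a*, against 15.9% of 27457 rat promoters. The longer CTTTGATG, every match of which also holds the shorter core, stood in 2 (*Axin2* and *Nkd1*, 6.67%) against 0.921%. The member promoters were rich in G and C, with a median of 66.2% against 52.3% over all promoters.

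Values below are TPM, an estimate already divided by transcript length and scaled to the same total in every sample, so that levels can be compared between genes. It keeps no sequencing depth, and the depth of each sample is unknown. In each sentence the 3 values of a group stand in the order of the sample numbers 1, 2 and 3 that the labels give. *Derl1* itself was at 122, 132 and 128 TPM in siControl and 44.9, 70.8 and 73.98 TPM in siDerl1, with means of 127 ± 5.19 TPM and 63.2 ± 15.98 TPM (SD, n = 3). The groups did not overlap, and the exact two-sided permutation test gave p = 0.1, the smallest that 3 against 3 allows. By limma, a linear model fitted across all genes, the log2 fold change of *Derl1* was −1.03, with an adjusted p of 0.497, or of 0.00884 with the sample number as a block. In the blocked fit it was 0.104 when low genes were kept and 0.229 without the intensity trend. Without both samples numbered 1 the log2 fold change was −0.83, with an adjusted p of 0.00696. All 8 NSC markers examined were above 1 TPM, among them *Sox2* (mean 498 TPM) and *Nes* (114 TPM). Several markers differed between the groups without overlap, with ratios of siDerl1 to siControl of 0.831 for *Nes*, 0.719 and 0.793 for the neuronal *Dcx* and *Syt1*, and 1.15 for the neuronal *Tubb3*, and *Gfap* was higher in siDerl1 in all 3 pairs (ratio 1.54). The oligodendrocyte lineage genes *Sox10* and *Mbp* had means of 652 and 284 TPM, while *Mog* was listed at 0. *Pdgfra* was lower in siDerl1 in all 3 pairs (ratio of means 0.724) and *Mbp* higher in all 3 (1.13), with groups that overlapped, and *Cspg4*, under 1 TPM, was lower without overlap (0.514). Of 6 fibroblast or mural markers, *Col3a1*, *Dcn*, *Lum* and *Rgs5* were listed at 0, and their sum, from *Col1a1* and *Pdgfrb*, was 1.04 to 1.81 TPM in siControl and 2.63 to 3.28 TPM in siDerl1. The part of these marker differences in the results below was not tested. Both samples numbered 1 stood apart from the other 4 across the transcriptome, and results that rest on them are given with and without them. The labels do not say that the samples came from separate cultures, so p-values measure the spread between these samples, which may be technical.

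Among the 44 genes chosen by symbol, *Ctnnb1*, the receptor *Fzd1*, the inhibitor *Dkk1* and the transcription factor *Lef1* had the highest means. The ligands were among the least abundant. Some pathway genes outside this choice lay above *Fzd1*, among them the inhibitor *Wif1*, described below, with a mean of 369 TPM. Of the 18 Wnt genes listed 8 were expressed, of the 9 Fzd genes 8, of the 4 Dkk genes 3 and of the 4 Sfrp genes only *Sfrp4*. The rule by symbol leaves out *Frzb*, also called Sfrp3, which had a mean of 5.75 TPM. All 9 of the singly named genes that could be measured were expressed. *Ctnnb1* had a mean of 609.9 TPM over the 6 samples, followed by *Fzd1* at 123 TPM, *Dkk1* at 109.6 TPM, *Lef1* at 109 TPM and *Lrp5* at 71.2 TPM. The place of *Dkk1* rests on numbers 2 and 3, since in both samples numbered 1 it lay below *Lrp5* and *Fzd2*. *Wnt5a*, the ligand with the highest mean, was at 7.13 TPM. In the order of the means, neighbours were separated beyond their range over the 6 samples between *Ctnnb1* and *Fzd1*, *Lef1* and *Lrp5*, *Lrp5* and *Fzd2*, *Tcf7l2* and *Lrp6*, and *Lrp6* and *Dkk4*, while in all other steps the ranges overlapped. Summed by family, the Fzd genes reached 269.7 ± 13.4 TPM in siControl and 233 ± 1.21 TPM in siDerl1, and the Wnt genes 29.8 ± 3.74 and 30.0 ± 2.52 TPM (SD, n = 3).

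**Figure D1:**
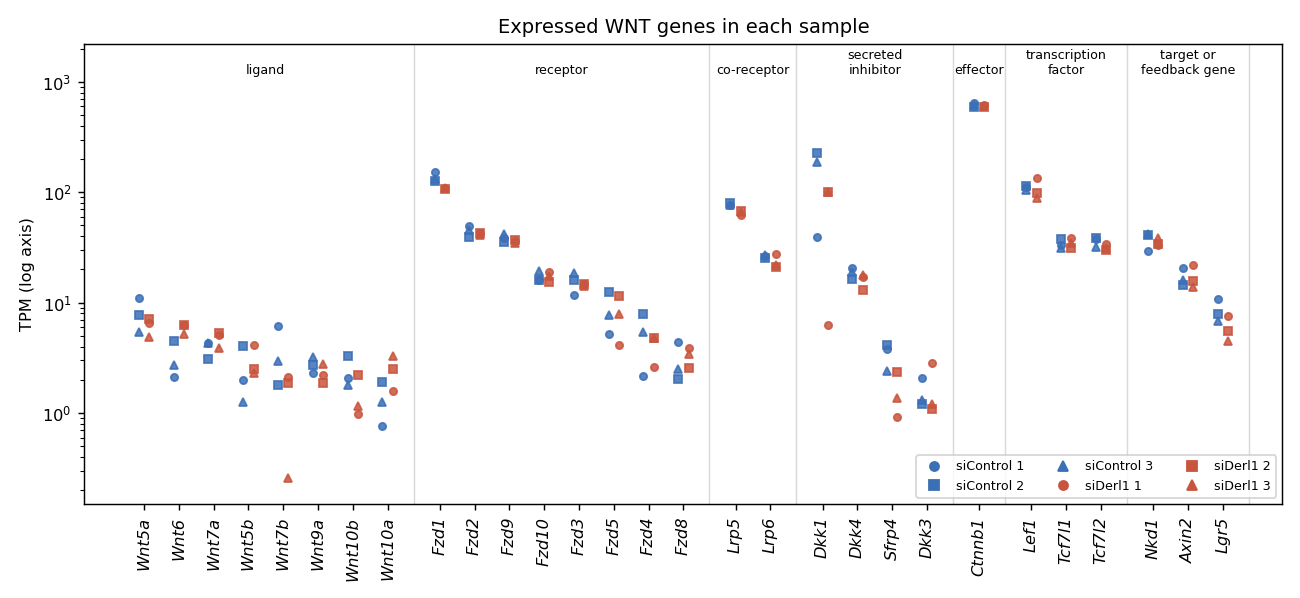
TPM (log axis) of the 29 expressed WNT genes, grouped by role on the x axis, with 1 point per sample (blue siControl, red siDerl1, shape by sample number). *Ctnnb1* lies highest, near 609.9 TPM, the 8 ligands lie mostly below 10 TPM, and the *Dkk1* points spread from 6.27 to 225 TPM, with both circles, the samples numbered 1, at the bottom.

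Between siDerl1 and siControl, *Wnt6* was higher in siDerl1 and *Fzd1*, *Lrp5* and *Sfrp4* were lower, with no overlap between the groups, and *Dkk1* was lower in siDerl1 in all 3 pairs of samples with the same number. None of the 29 passed an adjusted p of 0.05 in limma on log2(TPM + 1), with Benjamini-Hochberg adjustment over all 10331 genes tested, of which 0% passed. Without adjustment 4 of the 29 and 692 of the 10331 genes had a p under 0.05. The study's methods give 2 fold limits, which were taken here together with an unadjusted p under 0.05. The limit of a fold change above 1.5 was passed by 1 member (*Wnt6*), against 0.532% of all genes. The other limit, a fold change below 0.8, was passed by 2 (*Fzd1* and *Sfrp4*), against 1.37%. *Fzd1* missed this limit without siControl 1, without siDerl1 2 and under median-of-ratios scaling, and *Sfrp4* missed it without siControl 1, siControl 2, siDerl1 1 or siDerl1 3. Groups did not overlap in 1 of the 29 members higher in siDerl1, against 5.09% of all genes, and in 3 of the 29 lower, against 8.52%. These counts were near the shares of all genes. The log2 fold change was above 0 in 9 of the 29 (31.0%, against 45.2% of all genes), with a median of −0.10 against −0.02. The median was −0.15 without siControl 1 and −0.17 without siDerl1 1. Without both samples numbered 1 it was −0.19 against −0.03, and the log2 fold change was above 0 in 5 of the 29 (17.2%, against 41.9% of all genes). Within the numbers 1, 2 and 3 the members' median difference was −0.07, −0.21 and −0.15.

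With the sample number as a block in the fit, which takes out the difference between numbers, 1 member had an adjusted p under 0.05 (*Dkk1*, lower in siDerl1), against 0.552% of all genes. The study's limits were then passed by 1 member higher (*Wnt6*), against 1.12%, and 5 lower (*Dkk1*, *Fzd1*, *Lgr5*, *Sfrp4* and *Wnt7b*), against 2.41%. Without both samples numbered 1, *Dkk1* was again the member with an adjusted p under 0.05, against 0.319% of all genes. Of the limits only the lower one was then passed, by *Dkk1* and *Lgr5*, so that *Wnt6*, *Fzd1*, *Sfrp4* and *Wnt7b* no longer passed. Over all 10331 genes tested, 278 passed the lower limit there and 139 the upper one. All 3 pairs went one way in 12 of the 29 members, 2 of them higher and 10 lower in siDerl1 (41.4%, against 37.8% of all genes). Of the 10331 genes tested, 1632 were higher in all 3 pairs and 2278 lower. Fewer cells of a type and less RNA per cell cannot be told apart in these bulk samples. Fold changes are on the log2(TPM + 1) scale, which understates the change of low genes.

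**Figure D2:**
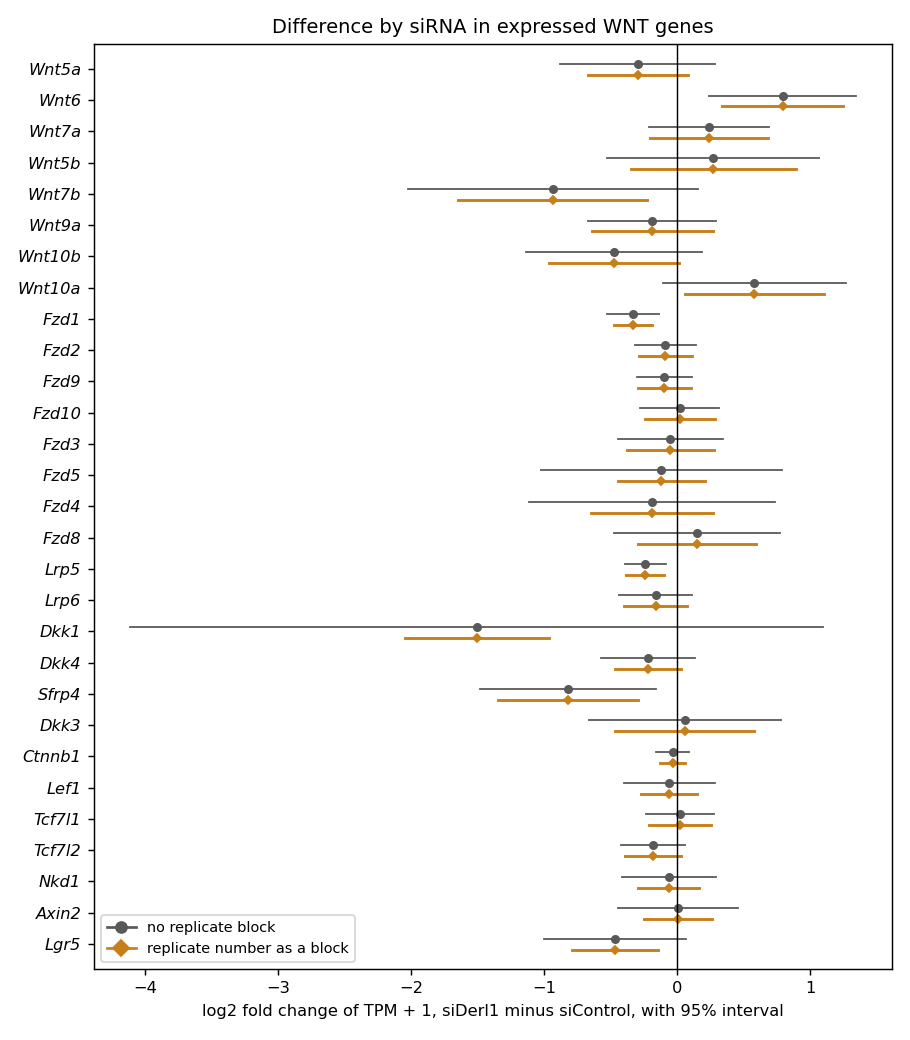
Log2 fold change of TPM + 1, siDerl1 minus siControl, of the 29 expressed WNT genes (y axis), with 95% intervals, without a block (grey circles) and with the sample number as a block (orange diamonds). The interval of *Dkk1* narrows from −4.11 to 1.10 without the block to −2.05 to −0.97 with it, and that of *Wnt6*, from 0.24 to 1.34 without the block, lies right of 0 in both fits.

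Among the ligands, *Wnt6* had the largest positive and *Wnt7b* the largest negative log2 fold change, and neither passed the adjusted test. Without both samples numbered 1, and without siDerl1 1 alone, the largest positive one was that of *Wnt10a* (0.60 and 0.78, against 0.58 and 0.75 for *Wnt6*). *Wnt6*, a canonical ligand, was at 2.14, 4.48 and 2.74 TPM in siControl and 6.33, 6.30 and 5.25 TPM in siDerl1. All 3 siDerl1 values lay above all 3 siControl values, with a ratio of the means of 1.91. The log2 fold change was 0.79 (95% interval 0.24 to 1.34), with an unadjusted p of 0.0113 and an adjusted p of 0.704. *Wnt10a*, the neighbour of *Wnt6* in the GRCr8 gene order, was at 0.76, 1.92 and 1.26 TPM in siControl and 1.57, 2.52 and 3.29 TPM in siDerl1. It was higher in siDerl1 in each pair of numbers, with a ratio of 1.87, but the groups overlapped and the log2 fold change of 0.58 had an interval of −0.11 to 1.27 (adjusted p = 0.764). *Wnt7b*, a canonical ligand, was at 6.17, 1.81 and 2.95 TPM in siControl and 2.14, 1.87 and 0.26 TPM in siDerl1. Its log2 fold change was −0.94 (−2.03 to 0.15, adjusted p = 0.763), set by numbers 1 and 3, while the pair numbered 2 hardly differed. Over the 6 samples its TPM covered a 23.7-fold range, and its range of 2.51 in log2(TPM + 1) was at percentile 99.2 of the genes tested.

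The other 5 expressed ligands had intervals that included 0. For these and the genes below, brackets give the log2 fold change and then its 95% interval. *Wnt5a*, best known for signalling without β-catenin, was at 10.97, 7.72 and 5.48 TPM in siControl and 6.61, 7.05 and 4.94 TPM in siDerl1, with its highest value in siControl 1 and a log2 fold change of −0.30 (−0.88 to 0.28). Its log2 fold change was −0.07 without siControl 1 and −0.52 without siControl 3. *Wnt5b*, its close relative, was at 1.98, 4.08 and 1.27 TPM in siControl and 4.17, 2.52 and 2.32 TPM in siDerl1, without a common direction (0.27, −0.53 to 1.07). *Wnt7a*, a ligand active in the nervous system, was at 4.32, 3.12 and 4.29 TPM in siControl and 5.13, 5.33 and 3.90 TPM in siDerl1. That was higher in siDerl1 for numbers 1 and 2 and lower for number 3 (0.24, −0.21 to 0.69). *Wnt9a* was at 2.30, 2.72 and 3.19 TPM in siControl and 2.20, 1.87 and 2.78 TPM in siDerl1 (−0.19, −0.67 to 0.29). *Wnt10b*, a canonical ligand, was at 2.06, 3.28 and 1.81 TPM in siControl and 0.98, 2.21 and 1.15 TPM in siDerl1. It was lower in siDerl1 in each pair, with groups that overlapped (−0.48, −1.14 to 0.19). Adjusted p-values of these 5 lay between 0.782 and 0.931.

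The other 10 ligands listed were below 1 TPM on average. *Wnt4* was at 0.38, 0.83 and 1.01 TPM in siControl and 0.00, 0.69 and 2.11 TPM in siDerl1, its highest and lowest values both in siDerl1. *Wnt1*, the founding member of the family and the neighbour of *Wnt10b*, was at 0.70, 0.85 and 0.76 TPM in siControl and 0.10, 0.72 and 0.30 TPM in siDerl1, with overlapping groups. *Wnt3*, a canonical ligand, was at 0.28, 0.31 and 0.37 TPM in siControl and 1.14, 0.38 and 0.31 TPM in siDerl1, above 1 TPM in siDerl1 1 alone. *Wnt11*, *Wnt2b* and *Wnt8b* reached at most 0.44 TPM, and *Wnt3a*, *Wnt8a*, *Wnt9b* and *Wnt16* were listed at 0 in every sample, as was the receptor *Fzd6*. The inhibitors *Sfrp1*, *Sfrp2*, *Sfrp5* and *Dkk2* reached at most 0.42 TPM. Of the 10 genes above 0 but under 1 TPM, fitted without a filter, none passed an adjusted p of 0.05.

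Among the receptors, *Fzd1* was the most abundant Fzd transcript and had the largest difference in TPM between the group means. *Fzd1* was at 153, 126 and 132 TPM in siControl and 109, 106 and 109 TPM in siDerl1, with means of 137 ± 14.4 TPM and 108 ± 1.82 TPM (SD, n = 3). All siDerl1 values lay below all siControl values, and siControl 1 was the highest. The log2 fold change was −0.33 (−0.53 to −0.14), with an unadjusted p of 0.0048 and an adjusted p of 0.704, or 0.0647 with the block. Its share of the summed Fzd TPM was 45.3% to 54.5% over the 6 samples. Without *Fzd1* the Fzd genes summed to 133 ± 6.83 TPM in siControl and 125 ± 3.01 TPM in siDerl1.

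The other 7 expressed Fzd receptors had intervals that included 0. *Fzd2* was at 49.7, 39.7 and 45.6 TPM in siControl and 42.4, 43.1 and 40.7 TPM in siDerl1 (−0.09, −0.32 to 0.14), and *Fzd9* at 38.8, 35.1 and 41.5 TPM in siControl and 36.3, 36.6 and 34.7 TPM in siDerl1 (−0.10, −0.30 to 0.11). For both, the siDerl1 values lay within a narrow band inside or next to the siControl range. *Fzd10* was at 16.1, 15.9 and 19.2 TPM in siControl and 19.1, 15.3 and 17.4 TPM in siDerl1 (0.02, −0.28 to 0.32). *Fzd3*, a receptor known for axon guidance through planar cell polarity, was at 11.7, 16.1 and 18.5 TPM in siControl and 14.9, 14.7 and 14.2 TPM in siDerl1 (−0.05, −0.44 to 0.34). Its 3 siDerl1 values, with an SD of 0.34 TPM, lay inside the siControl range. *Fzd5* was at 5.24, 12.5 and 7.72 TPM in siControl and 4.14, 11.5 and 7.91 TPM in siDerl1, and *Fzd4*, which also binds the non-Wnt ligand Norrin, at 2.15, 7.83 and 5.44 TPM in siControl and 2.62, 4.76 and 4.77 TPM in siDerl1. In both receptors the values differed more between sample numbers than between siRNAs, with log2 fold changes of −0.12 (−1.03 to 0.79) and −0.19 (−1.12 to 0.74). *Fzd8* was at 4.37, 2.04 and 2.49 TPM in siControl and 3.92, 2.54 and 3.44 TPM in siDerl1 (0.15, −0.48 to 0.77). It is uncertain, as is *Dkk1*, because the tables list 2 placements of its RefSeq identifier between which reads may be shared. Adjusted p-values of these 7 receptors lay between 0.883 and 0.988.

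Of the co-receptors, *Lrp5* was lower in siDerl1 without overlap, by a small amount. *Lrp5* was at 76.05, 79.3 and 76.4 TPM in siControl and 62.1, 67.3 and 66.2 TPM in siDerl1, with means of 77.3 ± 1.76 TPM and 65.2 ± 2.75 TPM (SD, n = 3). The log2 fold change of −0.24 (−0.40 to −0.09) had an unadjusted p of 0.0072 and an adjusted p of 0.704, and the fold change of 0.845 did not reach the study's limit of 0.8. *Lrp6*, the closest relative of *Lrp5*, was at 26.2, 25.5 and 26.9 TPM in siControl and 27.3, 21.00 and 21.99 TPM in siDerl1. It was lower in siDerl1 for numbers 2 and 3 and not for number 1, and its log2 fold change was −0.16 (−0.44 to 0.11, adjusted p = 0.832).

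Over all 6 samples the inhibitor *Dkk1* had the largest log2 fold change of the 29 members, and in the fit without the block it had the widest interval. With the block its interval was narrower than that of *Wnt7b*. The log2 fold change of *Wnt7b* exceeded that of *Dkk1* without siControl 2 (−1.24 against −1.05) and without siDerl1 1 (−1.18 against −0.24). *Dkk1*, an antagonist of Lrp5 and Lrp6, was at 39.3, 225 and 187 TPM in siControl and 6.27, 100.5 and 99.7 TPM in siDerl1. In each pair the siDerl1 sample was the lower one, with ratios of 0.160, 0.446 and 0.534 for numbers 1, 2 and 3. The samples numbered 1 were the lowest of their group, and siControl 1 lay below siDerl1 2 and 3, so that the groups overlapped. Without the block the log2 fold change was −1.51 (−4.11 to 1.10), with a standard error of 1.11 and an adjusted p of 0.844. With the block the same fold change had an interval of −2.05 to −0.97, a standard error of 0.24 and an adjusted p of 0.0353. That adjusted p was 0.188 when low genes were kept in the blocked fit, and 0.265 when it had no intensity trend. Without both samples numbered 1 the log2 fold change was −1.03, with an adjusted p of 0.00706. Leaving out 1 sample in the fit without the block moved it between −2.29 (without siControl 1) and −0.24 (without siDerl1 1). Over the 6 samples its TPM covered a 35.9-fold range, and its range of 4.96 in log2(TPM + 1) was at percentile 99.9 of the genes tested.

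*Sfrp4*, a frizzled-related protein that binds Wnt ligands, was at 3.82, 4.14 and 2.41 TPM in siControl and 0.92, 2.35 and 1.38 TPM in siDerl1. All siDerl1 values lay below all siControl values, the highest siDerl1 value, in number 2, lying just below the lowest siControl value. The ratio of the means was 0.448 and the log2 fold change −0.82 (−1.48 to −0.16), with an unadjusted p of 0.0217 and an adjusted p of 0.704. *Dkk4*, a further antagonist of the co-receptors, was at 20.6, 16.5 and 18.8 TPM in siControl and 17.02, 12.96 and 17.9 TPM in siDerl1. It was lower in siDerl1 in each pair, with overlapping groups (−0.22, −0.57 to 0.14, adjusted p = 0.828). *Dkk3*, a divergent member of the family, was at 2.06, 1.22 and 1.32 TPM in siControl and 2.87, 1.08 and 1.20 TPM in siDerl1, highest in both samples numbered 1 (0.06, −0.67 to 0.78, adjusted p = 0.983). Without *Dkk1*, the Dkk genes summed to 20.2 ± 2.52 TPM in siControl and 17.7 ± 3.23 TPM in siDerl1 (SD, n = 3), and *Dkk1* made up 23.8% to 92.7% of the Dkk sum.

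**Figure D3:**
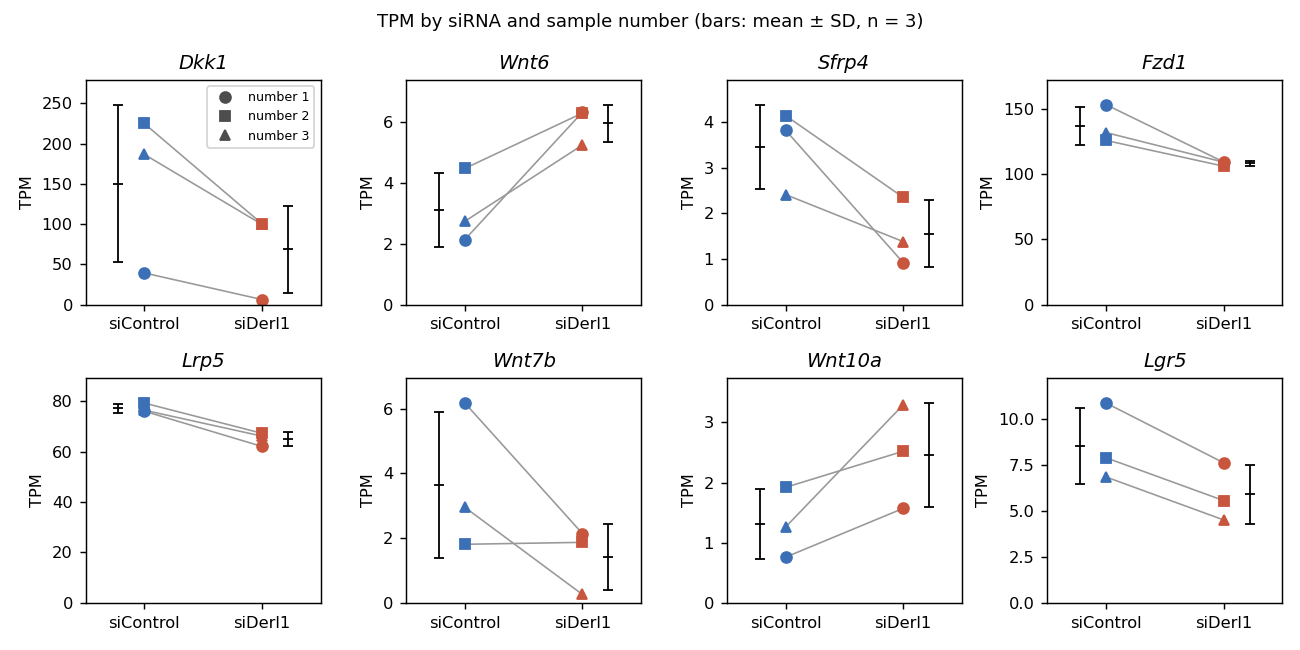
TPM of 8 WNT genes in siControl (blue) and siDerl1 (red), with lines joining samples of the same number and bars giving the mean ± SD (n = 3). *Dkk1* goes down along all 3 lines from 39.3, 225 and 187 TPM to 6.27, 100.5 and 99.7 TPM, *Wnt6* goes up along all 3, and the line of number 2 is nearly flat for *Wnt7b*.

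For β-catenin and the transcription factors it works with, every interval of the log2 fold change included 0. *Ctnnb1* was at 643, 592 and 617 TPM in siControl and 613, 597 and 598 TPM in siDerl1, and its log2 fold change of −0.04 (−0.16 to 0.09, adjusted p = 0.939) had the narrowest interval of the 29 members. *Lef1* was at 112, 115 and 104 TPM in siControl and 134, 99.00 and 88.5 TPM in siDerl1. Its siDerl1 values spread around the siControl range, highest in number 1 and lowest in number 3 (−0.06, −0.40 to 0.28, adjusted p = 0.96). *Tcf7l1*, known mainly as a repressor of target genes, was at 33.4, 37.9 and 31.5 TPM in siControl and 38.2, 31.5 and 34.4 TPM in siDerl1 (0.02, −0.24 to 0.27, adjusted p = 0.984). *Tcf7l2*, the main partner of β-catenin in the gut epithelium, was at 37.7, 38.4 and 31.8 TPM in siControl and 33.6, 29.7 and 31.2 TPM in siDerl1. It was lower in siDerl1 in each pair, by a ratio of the means of 0.876 that the spread did not separate from 1 (−0.18, −0.42 to 0.06, adjusted p = 0.772).

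None of the 3 target and feedback genes passed the adjusted test. *Axin2*, a scaffold of the β-catenin destruction complex and a widely used readout of canonical signalling, was at 20.4, 14.6 and 16.1 TPM in siControl and 21.8, 15.8 and 13.99 TPM in siDerl1. The group means of 17.02 ± 3.04 TPM and 17.2 ± 4.10 TPM (SD, n = 3) lay within a fraction of their SD of each other, and both samples numbered 1 were above the other 4. Its log2 fold change of 0.01 had an interval of −0.44 to 0.46 (adjusted p = 0.998). *Nkd1*, an intracellular inhibitor that the pathway induces, was at 29.1, 41.2 and 42.1 TPM in siControl and 33.5, 33.95 and 38.6 TPM in siDerl1 (−0.07, −0.42 to 0.29, adjusted p = 0.958). *Axin2* and *Nkd1*, which both hold CTTTGATG in the promoters printed above, differed in their pattern over sample numbers, number 1 being highest for *Axin2* and lowest for *Nkd1*, without passing the test between numbers (adjusted p = 0.0884 and 0.189). *Lgr5*, an R-spondin receptor and stem cell marker of several epithelia, was at 10.8, 7.87 and 6.83 TPM in siControl and 7.60, 5.55 and 4.50 TPM in siDerl1. It was lower in siDerl1 by similar ratios in each pair (0.701, 0.705 and 0.659), while the groups overlapped. The log2 fold change was −0.47 (−1.005 to 0.07, adjusted p = 0.763), or −0.79 to −0.15 with the block (adjusted p = 0.177).

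*Dkk1*, *Fzd5* and *Fzd4* differed among the 3 sample numbers. In a limma F test of the number terms, with the group in the fit, these 3 of 29 members had an adjusted p under 0.05, with values of 0.000268 for *Dkk1*, 0.0075 for *Fzd5* and 0.0443 for *Fzd4*, against 10.6% of all genes tested, a share near that of the members. All 3 had their lowest value in number 1 in each group, and *Fzd5* was also higher in number 2 than in number 3. Without the intensity trend 1 member passed (*Fzd5*), and *Dkk1* had an adjusted p of 0.051. Over all genes 252 then passed, against 1092 with the trend. *Fzd4* lost its call under median-of-ratios scaling, without the filter, and without siControl 1, siControl 2, siControl 3 or siDerl1 3. In log2(TPM + 1), number 1 minus the mean of numbers 2 and 3 was −2.35 in siControl and −3.80 in siDerl1 for *Dkk1*. For *Fzd5* these differences were −0.80 and −1.04, and for *Fzd4* they were −1.26 and −0.67. Both samples numbered 1 lay below the other 4 in 4 members (13.8%, against 17.0% of all genes) and above them in 3 (10.3%, against 15.7%). These were *Dkk1*, *Fzd5*, *Fzd4* and *Nkd1* below, and *Axin2*, *Fzd8* and *Dkk3* above. The median range of log2(TPM + 1) over the 6 samples was 0.62 for the members and 0.40 for all genes tested. Levels were not matched in this comparison. A mean of at least 5 TPM was reached by 18 of the 29 members and by 9162 of the 10331 genes tested. Without both samples numbered 1, none of the 29 differed between the numbers 2 and 3 at an adjusted p of 0.05, against 162 of the 10331 genes tested.

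**Figure D4:**
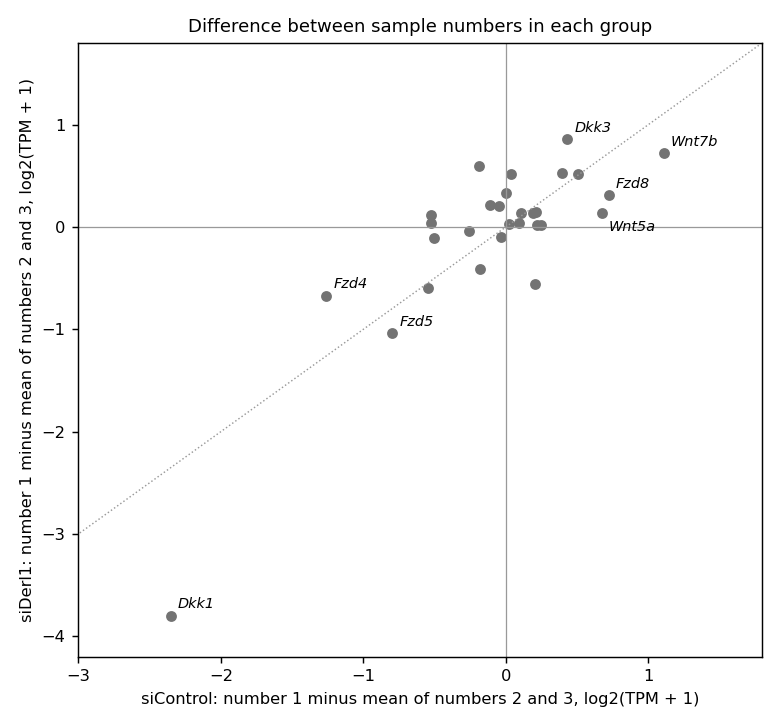
Difference of sample number 1 from the mean of numbers 2 and 3, in log2(TPM + 1), in siControl (x axis) and siDerl1 (y axis), with 1 point per expressed WNT gene, the dotted line marking equal differences and names given beyond 0.6 on either axis. *Dkk1* lies far from the rest at −2.35 and −3.80, and *Fzd4* and *Fzd5* lie below 0 on both axes.

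Other genes of the pathway, from a list of secretion factors, further co-receptors, R-spondins and their receptors, further inhibitors, transduction proteins, nuclear cofactors, further targets and planar polarity genes, were read in the same fit. Of 55 tested, none had an adjusted p under 0.05, with or without the block, 17 (30.9%) had a log2 fold change above 0, against 45.2% of all genes, and the median was −0.07 against −0.02. The median was −0.03 without siControl 3 and −0.05 without siDerl1 3, and without both samples numbered 1 it was −0.11, with 11 of the 55 above 0. The upper limit of the study was passed by 0, and the lower limit, passed by 1.37% of all genes, by 1 gene, *Kremen1*, a receptor for Dkk proteins, at 43.2, 44.01 and 37.3 TPM in siControl and 28.9, 36.1 and 34.2 TPM in siDerl1. Its groups did not overlap, and its log2 fold change was −0.32 (−0.59 to −0.06, adjusted p = 0.704). It missed the limit under median-of-ratios scaling, without siControl 1, siControl 2 or siDerl1 1, and without both samples numbered 1. Other genes came in when samples were left out. Without siControl 1, and without both samples numbered 1, *Tle1* passed the upper limit and *Lgr4* the lower one. *Gsk3b* passed the lower limit without siDerl1 1 and without both samples numbered 1, and *Nkd2* without siDerl1 3. A lower level in siDerl1 at an unadjusted p under 0.05 was also seen for *Gsk3b*, a kinase that marks β-catenin for destruction (−0.26), the β-catenin cofactor *Pygo2* (−0.24) and the co-repressor *Tle4* (−0.25), each with an adjusted p of 0.704. With *Kremen1* these were 4 of the 55, against 692 of the 10331 genes tested. *Pygo2* was at 85.5, 85.05 and 85.8 TPM in siControl and 73.01, 71.2 and 72.3 TPM in siDerl1. Its groups did not overlap and its siControl values were nearly equal. The groups of *Gsk3b*, *Tle4*, *Wls*, *Ryk*, *Apc* and *Scrib* did not overlap either, each lower in siDerl1. In all others of the 55 the groups overlapped. Of all genes, 8.52% were lower and 5.09% higher without overlap. *Gsk3b* was at 113, 125 and 119 TPM in siControl and 111, 98.8 and 87.6 TPM in siDerl1, with its lowest value in siDerl1 3. *Tle4* lay between 66.8 and 91.3 TPM over the 6 samples.

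Of the secretion factors, *Wls*, the carrier of Wnt proteins to the cell surface, ranged over 60.8 to 72.9 TPM and *Porcn*, which attaches their lipid, over 14.2 to 18.1 TPM. Of the further co-receptors *Ryk* ranged over 121 to 149 TPM and *Ptk7* over 49.6 to 60.5 TPM. *Lgr4*, a receptor for R-spondins, ranged over 44.5 to 72.01 TPM. It was the 1 expressed gene of the R-spondin list, of which *Rspo4*, *Lgr6* and *Znrf3* could not be measured. The R-spondin receptor *Lgr5* is among the members above. The kinases *Csnk1a1* and *Csnk1e* ranged over 211 to 269.9 TPM and 156 to 226 TPM, and the targets *Ccnd1* and *Cd44* over 203 to 289.6 TPM and 156 to 236 TPM. The planar polarity genes *Scrib* and *Prickle1* ranged over 95.2 to 102 TPM and 33.8 to 52.6 TPM.

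Between sample numbers 13 of the 55 pathway genes had an adjusted p under 0.05 in the F test, against the 10.6% of all genes given above. *Wif1*, a secreted protein that binds Wnt ligands, was at 130.2, 460.3 and 591 TPM in siControl and 136, 366 and 529 TPM in siDerl1, lowest in number 1 in both groups. *Myc*, a target gene, was at 264, 153 and 106 TPM in siControl and 295, 158 and 99.9 TPM in siDerl1, highest in number 1 in both groups. *Frzb*, a frizzled-related inhibitor, was at 9.29, 2.37 and 3.62 TPM in siControl and 12.3, 4.02 and 2.93 TPM in siDerl1, also highest in number 1. The other 10 were *Sost*, *Csnk1e*, *Tle1*, *Tle2*, *Tle3*, *Ccnd1*, *Tnfrsf19*, *Cd44*, *Celsr2* and *Prickle1*.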

How the data were processed

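Poly(A) RNA of 6 HCN samples, 3 siControl and 3 siDerl1 by their labels, was made into strand-specific libraries. Per the methods and the submitters' processing notes, the authors used Trimmomatic (0.39) for trimming, STAR (2.7.3a) for mapping to rn6, RSEM (1.3.2) for TPM and edgeR (3.28.1) for their comparison. The deposited TPM values have the same sum in every sample and hold no depth, so no counting error can be given.

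Here log2(TPM + 1) was compared with limma (3.58.1, R 4.3.3), eBayes allowing for an intensity trend and p-values adjusted by Benjamini-Hochberg over the 10331 genes whose mean reached 1 TPM. Alternatives were a pseudocount of 0.1, no filter, a mean of at least 5 TPM, median-of-ratios scaling, no trend, the replicate number as a block, and samples left out. The same-number deviations from the group means correlated at 0.697, 0.353 and 0.507 for numbers 1, 2 and 3 across genes, so the numbers were taken as pairs, but siControl 2 with siDerl1 3 gave 0.345. No pair of samples held the same values. Members and lists were chosen with earlier results of these data known. All expressed members are named, with those under 1 TPM that reached 0.5 TPM in a sample, and of other pathway genes the 2 highest per list and those past a limit. The RefSeq identifiers of 42 of the 44 members carry the same symbol in GRCr8, the assembly of the promoters. It is not the build of the reads, and no coordinate was converted.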

Additional observations from a re-analysis of the deposited data

How the results depend on the processing

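Over the alternatives, 399 of 424 values of the expressed members kept their direction and their side of an adjusted p of 0.05. Of the rest, 2 gained the call (both *Dkk1*, with the block and without both samples numbered 1) and 23, in 10 members, changed sign. The filter, trend and block alternatives leave the fold change itself unchanged, so no sign could change in them. No cause was tested. *Derl1* gained its call with the replicate block (−1.03) and without both samples numbered 1 (−0.83), but not with the block and no filter (adjusted p = 0.104) or the block and no trend (0.229). With the block 57 genes had an adjusted p under 0.05, 2 with the block and no filter, and 33 without both samples numbered 1. By the study's limits, genes higher numbered 24 at a mean of at least 5 TPM, 116 with the block, 138 with the block and no filter, 104 with the block and no trend, and 139 without both samples numbered 1. Genes lower numbered 249, 314, 272 and 278 under the last 4 of these. Of the members, 0 were higher at a mean of at least 5 TPM or without both samples numbered 1. At a mean of at least 5 TPM, *Wnt6* (4.54 TPM) and *Sfrp4* (2.50 TPM) were not tested, so neither could pass there. Lower members numbered 1 at 5 TPM or under median-of-ratios scaling, 5 with the block, 7 with no filter added and 6 with no trend added. Their median was −0.19 without both samples numbered 1, where the log2 fold changes of *Tcf7l1* (−0.068), *Fzd10* (−0.092), *Axin2* (−0.038) and *Dkk3* (−0.085) turned negative. Members that differed between numbers were 1 without the trend and 0 without number 1, against 252 and 162 of all genes tested.

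When samples were left out singly, the remaining samples sharing 1 estimate of the spread, the log2 fold change lay between −0.23 and 0.066 for *Lef1*, −0.23 and 0.026 for *Nkd1*, −0.052 and 0.091 for *Tcf7l1*, −0.054 and 0.10 for *Fzd10*, −0.17 and 0.14 for *Axin2*, −0.23 and 0.084 for *Fzd3*, −0.42 and 0.23 for *Fzd5*, −0.61 and 0.13 for *Fzd4*, −0.023 and 0.39 for *Fzd8*, and −0.23 and 0.22 for *Dkk3*. Leaving out a sample moved it by over 1.5 times with no change of sign in 13 further members, between −0.52 and −0.074 for *Wnt5a*, 0.012 and 0.59 for *Wnt5b*, 0.12 and 0.35 for *Wnt7a*, −1.24 and −0.52 for *Wnt7b*, −0.30 and −0.097 for *Wnt9a*, −0.69 and −0.29 for *Wnt10b*, −0.18 and −0.017 for *Fzd2*, −0.16 and −0.042 for *Fzd9*, −0.27 and −0.092 for *Lrp6*, −2.29 and −0.24 for *Dkk1*, −0.30 and −0.083 for *Dkk4*, −0.065 and −0.0055 for *Ctnnb1*, and −0.64 and −0.30 for *Lgr5*. Genes past the study's limits numbered 52 to 100 higher (100 without siDerl1 1) and 114 to 252 lower (252 without siControl 1). Members past them numbered 1 to 2 higher (2, with *Wnt10a*, without siDerl1 1) and 0 to 2 lower (0 without siControl 1). The members' median lay between −0.17 and −0.092. Members that differed between numbers were 2 to 5 (5 without siDerl1 1), against 608 to 1594 of all genes tested (1376 without siDerl1 1). TPM holds no depth, so no limit of detection can be given for members listed at 0.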
